A study of Mus musculus with 12 samples.

Results

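Mitochondrial ribosomal protein genes were followed across 4 groups of mouse mammary tumours, in 12 RNA sequencing libraries. The members are the genes whose symbol begins with Mrpl or Mrps followed by a number, which holds for 78 of the 21899 genes in the deposited table. They were picked by name and not by a measured value, though with earlier results of these data known. Of these, 49 carry an Mrpl symbol (large subunit) and 29 an Mrps symbol (small subunit).

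The tumours were grown from 4T1-LUC cells, a line derived from the 4T1 mouse mammary carcinoma, placed under the skin of BALB/c mice that were 4 to 6 weeks old at the start. Every group was gavaged daily with 200 µL. The control group received corn oil, the curcumin group curcumin in corn oil at 100 mg/kg, the swimming group corn oil followed by 30 min of swimming, and the combination group both curcumin and swimming. All 4 groups therefore bore tumours and were gavaged, and a saline group without tumours named in the protocol was not analysed here. Each group has 3 libraries, referred to here as control 1, control 2 and so on. Whether the 3 came from separate animals is not in the labels, and the p-values are set against library-to-library spread, which may be technical.

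Mitochondria keep their own ribosome, which translates the few messages encoded in mitochondrial DNA into membrane subunits of the respiratory chain and ATP synthase. Its RNAs come from mitochondrial DNA, but its proteins are encoded in the nucleus, made in the cytosol and imported. Some of them descend from bacterial ribosomal proteins and others have no bacterial counterpart. By these known origins, 46 members are bacterial homologues (30 of the large and 16 of the small subunit) and 31 are specific to mitochondria. Both Mrps18a and Mrps30 sit in the large subunit despite their symbols, which gives 51 large and 26 small subunit genes. Mrps36 is now known as a component of the 2-oxoglutarate dehydrogenase complex and was kept as a member but put in neither subunit.

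Library totals ran from 15069348 to 17278826 counts. All 11 listed markers of tumour epithelium, among them Epcam and Krt8, were detected, with a summed level of 3068 to 3970 CPM (counts scaled to a common library size). Other cell types varied more. Summed fibroblast markers ran from 1499 to 6503 CPM and skeletal muscle markers from 15.5 to 622 CPM. Control 2 stood apart with a cell cycle list level of -1.07, against 0.09 and 0.00 in controls 1 and 3. In bulk tissue, fewer cells of a type and less RNA per cell cannot be told apart.

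Levels between members were compared per length, in FPKM (the authors' counts scaled by gene model length and library total). Mrpl24, a large subunit protein near the exit of the peptide tunnel, was highest at a mean of 27.8 FPKM over the 12 libraries. Mrpl10 followed at 25.9, Mrps15 at 25.1, Mrpl38 at 25 and Mrpl12 at 24.2 FPKM. Mrpl10 and Mrpl12 form the stalk that recruits translation factors. Mrpl24 lay above its neighbour Mrpl10 without overlap in control (27.5 to 31.2 against 25.8 to 27.2 FPKM) and under curcumin (29.5 to 31.8 against 25.5 to 27.7 FPKM). Under swimming and in the combination their libraries overlapped. Of 76 neighbouring pairs in the whole order, 27 overlapped in all 4 groups, 30 did not in 1 group, 17 did not in 2 groups and 2 did not in 3 or 4. The median over the 77 members above 0 was 8.01 FPKM, with 9.63 for 50 large and 6.47 for 26 small subunit genes. At the low end were Mrps11 at 1.60, Mrpl48 at 1.47, Mrps18c at 1.36, Mrpl33 at 1.36 and Mrpl53 at 0 FPKM.

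**Figure D1:**
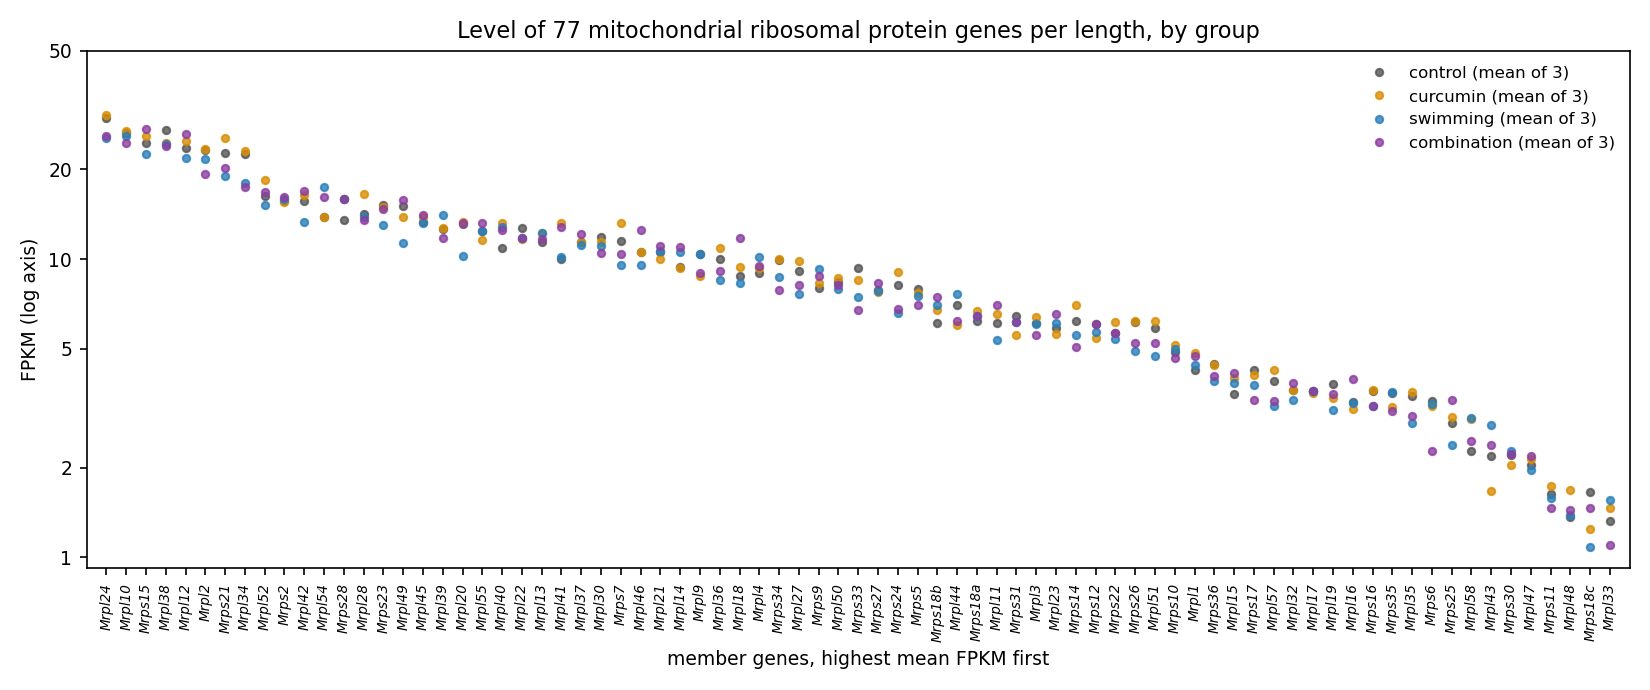
Mean FPKM of 77 member genes in each of the 4 groups (3 libraries each), on a log axis, ordered by their mean over the 12 libraries. Mrpl24 leads at 27.8 FPKM and Mrpl33 closes the row at 1.36 FPKM, with the 4 group means of a gene drawn above each other.

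The order of the members was nearly the same in every library, with rank correlations of FPKM between 0.948 and 0.985 over 66 pairs of libraries. These correlations describe genes that share one length and one mapping in all libraries. Gene model length differed widely, from 607 bases (Mrpl34) to 8631 (Mrps35), and members with longer models had lower FPKM (rank correlation -0.53 over 77 genes). The length used is the union of exons over all annotated isoforms, so FPKM understates a gene that mainly expresses a short isoform. Among the low members, Mrpl33 has a model of 7326 bases and Mrpl48 one of 8152.

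Mrpl53, a large subunit protein specific to mitochondria, is listed with 0 counts in all 12 libraries. A count of 0 allows up to 0.174 to 0.199 CPM per library for counting error (3 counts). In the GENCODE M21 annotation, 88.0% of its exon bases also belong to exons of Gm42688 on the same strand, and Gm42688 itself had 1 to 8 counts. Exons of another gene of the table covered part of 22 of the 78 members, on the same strand in 4 of them. Mrpl43 shares 33.4% of its exon bases with Twnk, which encodes the mitochondrial DNA helicase, on the opposite strand, and averaged 55.2 counts. Opposite-strand exons also cover 26.3% of Mrpl24 (Rrnad1), 69.8% of Mrps25 (Nr2c2), 12.2% of Mrpl46 (Mrps11), 10.1% of Mrpl18 (Tcp1) and 4.9% of Mrpl49 (Syvn1). The part of shared exons in the counts of these members was not tested.

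The summed level of the members overlapped between all 4 groups. They took 0.179 ± 0.0116% of all counts in control (SD, n = 3), 0.183 ± 0.00612% under curcumin, 0.172 ± 0.00998% under swimming and 0.177 ± 0.00137% in the combination. Scaled for library composition, their summed level was 1780 ± 91.2, 1791 ± 45.8, 1763 ± 118 and 1784 ± 11.6 CPM in the same order. The lowest sum, 1637 CPM in swimming 3, and the highest, 1870 CPM in swimming 2, came from the same group. Swimming 3 also had the lowest median member level, -0.10 on the log2 scale relative to each gene's mean, and 23 of 77 members above their mean. Swimming 2 had 56 of 77 above it. Control 2, with the low cell cycle level, stood at 0.05, close to control 3 at 0.06. Swimming 3, lowest in member level, had the next lowest cell cycle level after control 2, at -0.52. Whether the member level follows the cell cycle list was not tested.

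**Figure D2:**
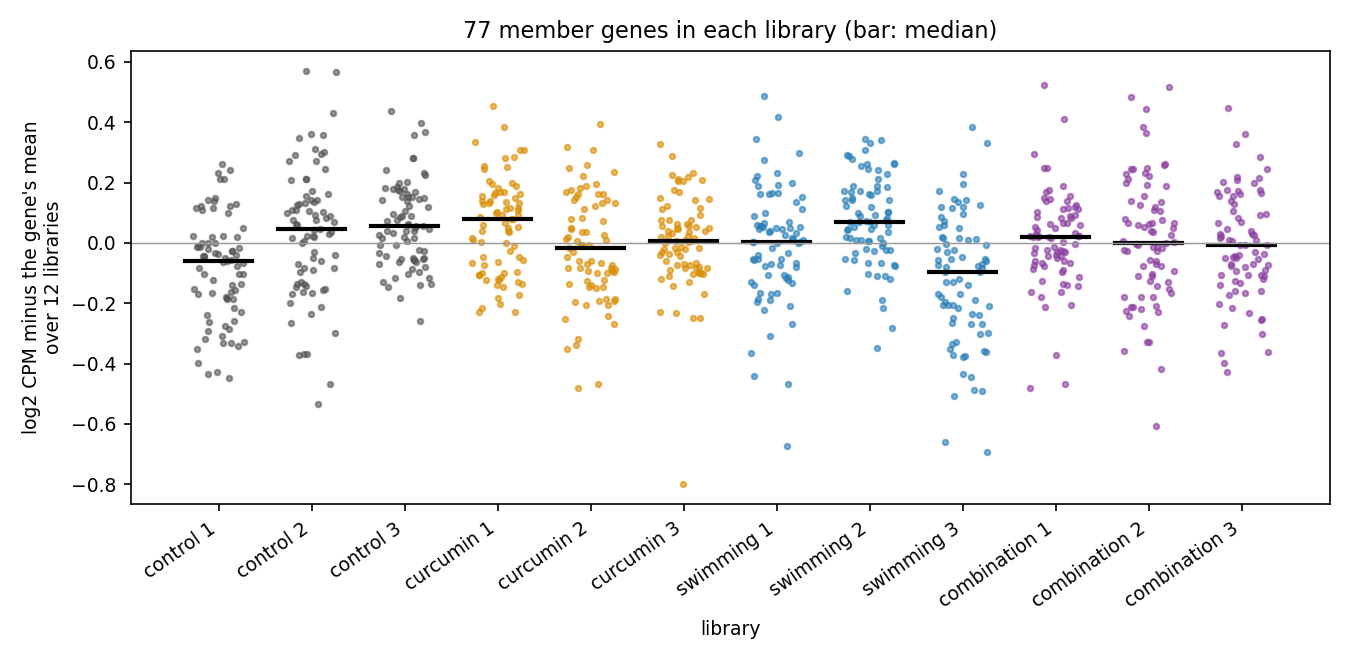
Each point is 1 of 77 member genes in 1 of 12 libraries, as log2 CPM minus that gene's mean over the libraries, and the bar is the library's median. Medians run from -0.10 in swimming 3 to 0.08 in curcumin 1, and the groups overlap.

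Most members differed little between group means. The ratio of the highest to the lowest group mean had a median of 1.2 over 77 tested members, against 1.30 over 13638 tested genes. It exceeded 1.5 in 1.3% of members, which is Mrpl43 alone at 1.75, and in 29.4% of all genes. Within groups the median SD of members was 0.16 (control), 0.10 (curcumin), 0.14 (swimming) and 0.11 (combination) on the log2 scale. For all genes these were 0.23, 0.13, 0.17 and 0.11.

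Every comparison below used edgeR's quasi-likelihood F-test on the 13638 genes that passed the filter on low counts. A call means a Benjamini-Hochberg adjusted p of at most 0.05. The filter on low counts removed Mrpl53 and kept the other 77 members. In the 3 comparisons with control, which share the control libraries, no member was called.

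Curcumin alone against tumour control asked what the polyphenol did without exercise. Member differences centred on 0, with 40 of 77 positive and a median log2 difference of 0.01 (0.00 over all genes). edgeR called 0 members and 0% of all genes, and DESeq2 called 0 members beside 0.593% of all genes. At an unadjusted p under 0.05 there were 2 members, or 2.6%, against 10.9% of all genes. The 3 control and 3 curcumin libraries did not overlap for 10 of 77 members, against 14.6% of all genes. For 68 of 77 members the 95% interval lay within a 1.5-fold change in either direction.

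Mrpl40, a large subunit protein specific to mitochondria, had the smallest p. It measured 17.8, 20.4 and 19.1 CPM in the control libraries and 23.9, 22.3 and 22.2 CPM under curcumin. The groups did not overlap, and the log2 difference was 0.25 ± 0.10 (SE, edgeR adjusted p = 0.41). Mrpl40 was also at 22.2, 23.3 and 24.0 CPM under swimming (0.28 ± 0.10, edgeR adjusted p = 0.28). In the combination it read 21.3, 21.3 and 24.0 CPM (0.21 ± 0.10, edgeR adjusted p = 0.20). All 9 treated libraries thus lay above the 3 controls, but these 3 differences rest on the same control libraries.

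The other members of smallest p under curcumin were Mrpl48 (0.28), Mrpl41 (0.39), Mrpl38 (-0.18) and Mrpl58 (0.33), all with an adjusted p of 0.46 to 0.50. Single libraries moved 3 of these by over 1.5 times. Mrpl38 was at -0.079 without control 2, Mrpl41 at 0.24 without control 2 and 0.63 without control 3, and Mrpl58 at 0.22 without curcumin 2. Mrpl58, a peptidyl-tRNA hydrolase that frees stalled mitochondrial ribosomes, measured 7.53 ± 0.543 CPM in control and 9.50 ± 1.39 CPM under curcumin (n = 3). Mrpl41 read 7.94, 6.93 and 11.5 CPM in the controls and 10.7, 12.1 and 11.7 CPM under curcumin. Control 3 lay inside the curcumin range.

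Swimming alone against tumour control gave member differences on both sides of 0. Of 77 members 36 were positive, with a median log2 difference of -0.02 (-0.01 over all genes). edgeR called 0 members beside 0.308% of all genes, and DESeq2 called 0 members beside 2.37%. An unadjusted p under 0.05 was reached by 6 members, or 7.79%, against 13% of all genes. Libraries did not overlap for 15 of 77 members (8 higher, 7 lower), a larger share than the 13.1% of all genes (1783 of 13638). Of the intervals, 62 of 77 lay within 1.5-fold.

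Mrpl49, a large subunit protein specific to mitochondria, had the smallest p after swimming. It read 25, 28.1 and 30.8 CPM in control and 23.9, 21.4 and 20.1 CPM under swimming. All swimming libraries were below all controls, with a log2 difference of -0.36 ± 0.11 (SE, edgeR adjusted p = 0.18). Mrps9, a small subunit protein of the tRNA-binding head, read 41.3, 48.4 and 47.5 CPM in control and 51.0, 58.6 and 53.8 CPM under swimming (0.25 ± 0.09, edgeR adjusted p = 0.26). Mrpl20 was lower by a mean of 21.7 against 17.5 CPM (-0.31, adjusted p = 0.30), with swimming 3 lowest at 14.5 CPM and a difference of -0.19 without it. Mrpl58 was at 10.0 ± 0.598 CPM, a log2 difference of 0.41 from control (adjusted p = 0.35).

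The combination against tumour control was the comparison with control in which most genes of the tumour were called, at 4.86% of all tested genes, and no member was among them. Members split evenly, 39 positive and 38 negative, with a median log2 difference of 0.02 (-0.02 over all genes). At an unadjusted p under 0.05 there were 5 members, or 6.49%, against 26.6% of all genes. The libraries of the 2 groups did not overlap for 11 of 77 members, 6 higher and 5 lower, while this held for 32.1% of all genes (16.3% higher, 15.8% lower). DESeq2 called 1 member, Mrps33 (1.3%), beside 12% of all genes. The share of all genes moved with single libraries, from 0.0289% without combination 3 to 15.8% without control 1. The 95% interval stayed within 1.5-fold for 55 members and within 2-fold for all 77. Among markers of other cells in this comparison, 3 of 9 tested for neutrophils were called lower (median -0.84, 7 at an unadjusted p under 0.05). Summed neutrophil markers overlapped, at 756 to 791 CPM in control and 753 to 781 CPM in the combination. The neutrophil list level was -0.47, 1.00 and -0.24 in controls 1, 2 and 3, and -0.73 to -0.64 in the combination. Of 10 adipocyte markers 5 passed the filter on low counts, and all 5 were positive (median 6.01, 3 called). The 3 called averaged 0 (Pck1), 0.02 (Cidec) and 0.04 CPM (Cfd) in control and 1.32, 1.76 and 3.17 CPM in the combination. The filter can keep a gene that is high in 1 group only, so this count was partly set by the filter. For endothelium 9 of 10 were positive (median 0.49, 1 called), and all 11 for skeletal muscle were negative (median -1.43, 1 at an unadjusted p under 0.05). For fibroblasts 8 of 10 were positive (median 0.57), for macrophages 1 of 10 (median -0.41) and for the cell cycle list 20 of 20 (median 0.53). edgeR called 0 in these 3 lists, with 5, 4 and 4 at an unadjusted p under 0.05. DESeq2 called 3, 0 and 2. Control 2 had a fibroblast level of -1.06 and a cell cycle level of -1.07. Controls 1 and 3 were at 0.09 and 0.35 for fibroblasts and at 0.09 and -0.0008 for the cell cycle list. The combination libraries were at 0.38 to 0.41 and at 0.28 to 0.30. The part of these markers in member values was not tested.

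**Figure D3:**
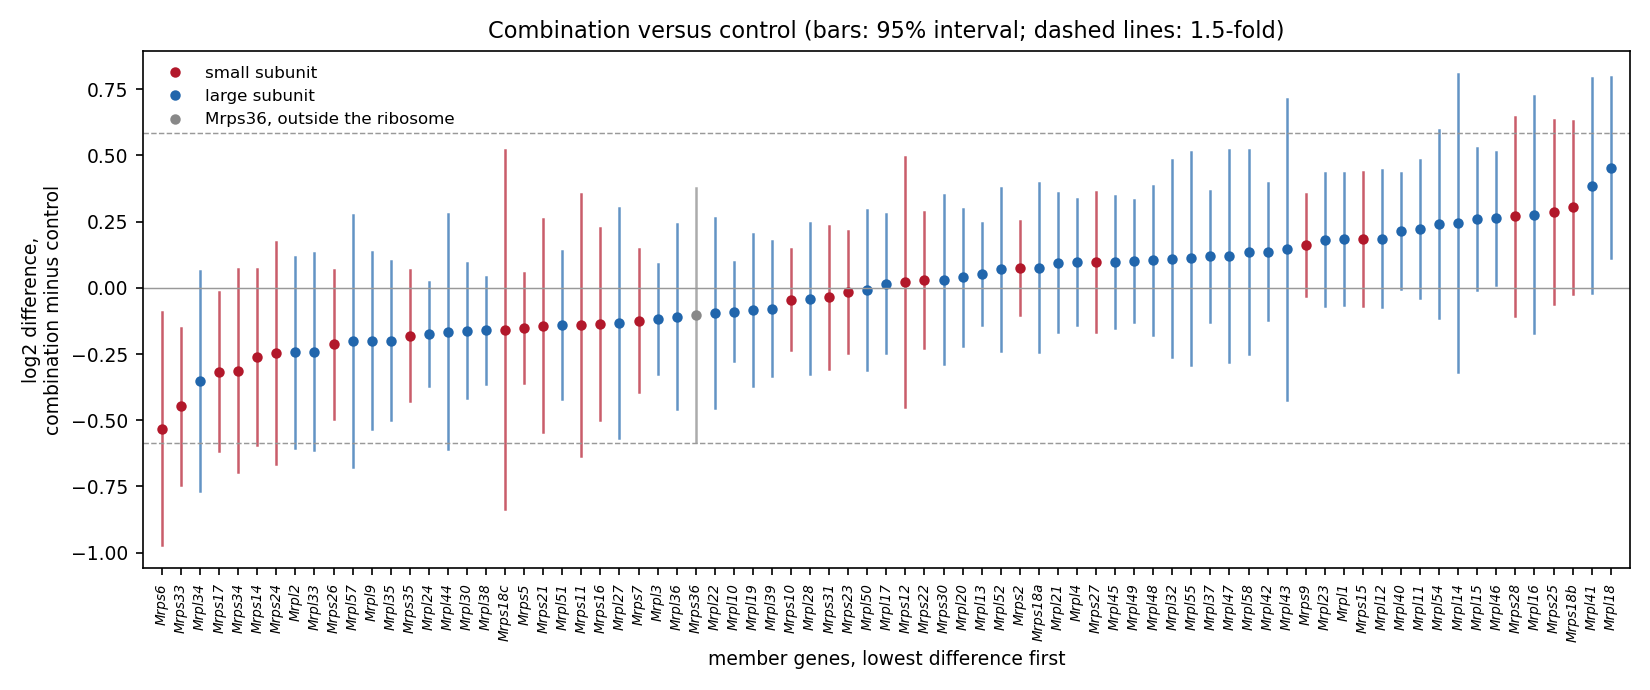
Log2 difference between combination and control for each of 77 members with its 95% interval, coloured by subunit, with dashed lines at a 1.5-fold change. Points run from -0.53 (Mrps6) to 0.45 (Mrpl18), and no member passed the adjusted threshold.

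The 2 members furthest below control belong to the small subunit, and the third lowest, Mrpl34 at -0.35, to the large. Mrps33 read 15.6, 15.3 and 15.5 CPM in control and 12, 12.2 and 9.80 CPM in the combination (-0.45 ± 0.14, edgeR adjusted p = 0.070, DESeq2 adjusted p = 0.038). The curcumin libraries, at 14.2, 15.2 and 12.1 CPM, and the swimming libraries, at 13.3, 13.4 and 11.5 CPM, were all below the controls and overlapped the combination. Mrps6, a homologue of bacterial S6, read 4.48, 5.62 and 5.19 CPM in control and 3.27, 3.39 and 3.92 CPM in the combination (-0.53 ± 0.20, edgeR adjusted p = 0.12). Part of its exons, 19.9%, is shared with Slc5a3 and Gm49711 on the same strand. Slc5a3, a sodium and myo-inositol cotransporter, was itself at -0.56 (edgeR adjusted p = 0.063), and the part of shared reads was not tested. Mrps17 was at -0.32 (adjusted p = 0.17), at -0.43 without control 1 (edgeR adjusted p = 0.048, with 15.8% of all genes called) and at -0.19 without control 2 (edgeR adjusted p = 0.45).

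Large subunit members led in the other direction. Mrpl18, which holds the tRNA that takes the place of 5S rRNA in the mammalian mitochondrial ribosome, read 13.6, 10.2 and 12.5 CPM in control and 16.2, 15.6 and 18.0 CPM in the combination (0.45 ± 0.16, edgeR adjusted p = 0.10). Mrpl46, specific to mitochondria, read 16.3, 13.7 and 14.6 CPM against 18.1, 18.3 and 17.1 CPM (0.26 ± 0.12, edgeR adjusted p = 0.17). Neither gene's libraries overlapped between the groups. By subunit, 9 of 26 small subunit genes and 30 of 50 large subunit genes were positive, with medians of -0.13 and 0.07. The difference between subunits was not tested. In swimming against control the medians were -0.06 and 0.02, and under curcumin -0.01 and 0.02. By origin, the combination medians were -0.06 for 46 bacterial homologues and 0.07 for 30 tested members specific to mitochondria.

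Adding curcumin to swimming, examined by combination against swimming, held the only member called. Mrpl49 rose from 21.8 ± 1.95 to 30.0 ± 1.03 CPM (SD, n = 3), a log2 difference of 0.46 ± 0.11 (SE, edgeR adjusted p = 0.028). The combination libraries read 29.4, 31.2 and 29.4 CPM, above every swimming library. This was 1 of 77 members, or 1.3%, beside 6.66% of all genes called (3.5% higher). Against tumour control at 28 ± 2.93 CPM, the combination did not differ beyond the spread (0.10 ± 0.11, edgeR adjusted p = 0.56). The swimming group had the lowest mean of the 4, with curcumin alone at 25.4 ± 1.01 CPM. The interaction, which asks whether swimming acted differently with curcumin, was 0.60 ± 0.15 (edgeR adjusted p = 0.17). DESeq2 called Mrpl49 for the interaction.

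The call of Mrpl49 did not hold without swimming 1, swimming 3, combination 1, combination 2 or combination 3, with an edgeR adjusted p between 0.057 and 0.11 and a log2 difference from 0.40 to 0.53. In those fits 0.225% to 1.17% of all genes were called, and with the combination libraries summed into 1 sample no gene was. Without control 2, 6 members were called (Mrpl49, Mrps25, Mrpl11, Mrpl46, Mrpl18 higher and Mrpl33 lower), or 7.79% beside 19.5% of all genes. Without control 1 there were 2 (Mrpl49 and Mrpl33), or 2.6% beside 11.9%. A fit of the 2 groups alone called the same 6 members as the fit without control 2, beside 20.5% of all genes. DESeq2 called 5 of them, all but Mrps25, or 6.49% beside 13.3% of all genes. In each of these fits the share of members called was below that of all genes.

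Across all members, combination against swimming gave 43 of 77 positive and a median log2 difference of 0.03. An unadjusted p under 0.05 was reached by 11 members, or 14.3%, against 27.4% of all genes. Libraries did not overlap for 18 members (12 higher, 6 lower), or 23.4%, against 40.6% of all genes (20.4% higher, 20.2% lower). Markers of other cell types moved in the same comparison. All 10 endothelial markers were positive (7 called, among them Pecam1 and Kdr), and their summed level was 147 to 246 CPM under swimming and 431 to 502 CPM in the combination. Of 10 fibroblast markers 9 were positive (median 0.95, 8 at an unadjusted p under 0.05), with sums of 2126 to 3848 and 6133 to 6503 CPM. Of 9 tested neutrophil markers 8 were negative (median -0.93, 4 called), with sums of 769 to 839 and 753 to 781 CPM. No marker of these 3 lists was at 0 in all libraries. Their part in the Mrpl49 difference was not tested.

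**Figure D4:**
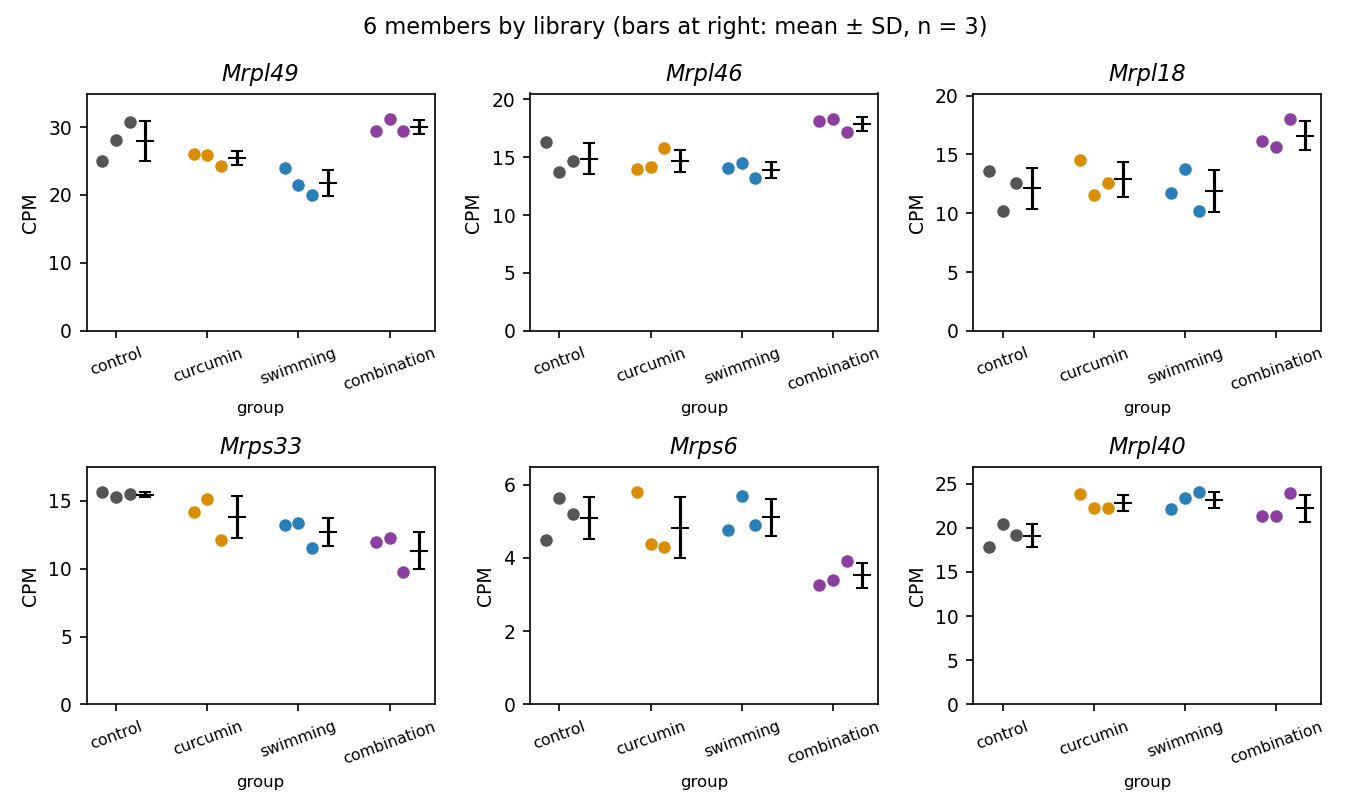
CPM of 6 members in each library, with mean ± SD at the right of each group (n = 3). Mrpl49 is lowest under swimming, at 20.1 to 23.9 CPM. Mrpl46 and Mrpl18 are highest in the combination, Mrps33 and Mrps6 lowest there, and Mrpl40 lowest in control.

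Adding swimming to curcumin, combination against curcumin, called 0 members with edgeR, beside 0.851% of all genes, and 0 with DESeq2, beside 4.86%. There were 7 members at an unadjusted p under 0.05, or 9.09%, against 18% of all genes. Libraries did not overlap for 20 of 77 members, against 37.1% of all genes. The median log2 difference was 0.02, with 39 of 77 positive. The smallest p belonged to Mrps14, a small subunit protein (-0.42 ± 0.15, edgeR adjusted p = 0.18). In a fit of these 2 groups alone Mrps14 was called, as were 16% of all genes.

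The single treatments set against each other, swimming against curcumin, called 0 members with edgeR, beside 1.78% of all genes. DESeq2 called 0, beside 7.72%. There were 6 members at an unadjusted p under 0.05, or 7.79%, against 21.8% of all genes, and the median was -0.04. Libraries did not overlap for 20 of 77 members, against 30.9% of all genes. The smallest p belonged to Mrps7, a small subunit protein (-0.39 ± 0.13, edgeR adjusted p = 0.11). Mrpl43 had the largest difference, at 4.49, 4.10 and 4.39 CPM under swimming and 3.20, 2.35 and 1.86 CPM under curcumin (0.80 ± 0.27, edgeR adjusted p = 0.12). Its exons overlap those of Twnk, which was at 0.03 in this comparison (edgeR adjusted p = 0.93). For the interaction, edgeR called 0 members beside 0.249% of all genes, and DESeq2 called 1 (Mrpl49) beside 1.57%, with 5 members at an unadjusted p under 0.05, or 6.49%, against 11% of all genes.

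**Figure D5:**
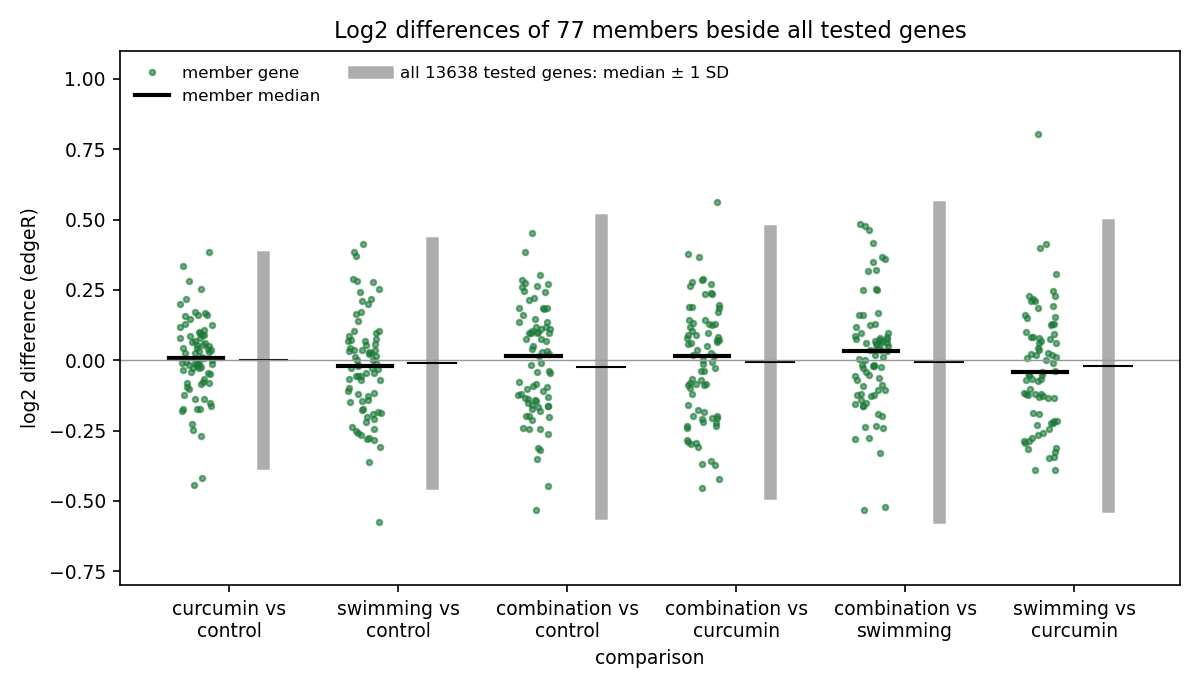
Log2 differences of 77 members (points, black bar at the median) beside the median ± 1 SD over all 13638 tested genes (grey), for 6 comparisons. Member medians lie between -0.04 and 0.03, and the points cover a narrower range than the grey bars in combination against control (SD 0.20 for members, 0.52 for all genes).

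Promoters are shown for Mrpl49, the called member, and for Mrpl46 and Mrpl18, the next by p in that comparison, with Mrps11 added afterwards because it lies head to head with Mrpl46. Head to head means start sites on opposite strands within 1000 bases of each other in the deposited coordinates. This holds for 32 of 78 members (41.0%) and for 15% of all tested genes. Mrpl49 (chromosome 19, 6103652 to 6107815, minus strand, as deposited) has its start 59 bases from that of Fau, which encodes a ubiquitin-like protein fused to a cytosolic ribosomal protein. Mrpl46 (chromosome 7, 78424984 to 78433279, minus strand) and Mrps11 (chromosome 7, 78432867 to 78442737, plus strand) overlap at their starts.

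The windows below run 5′ to 3′ from 250 bases before to 50 after each start, from RefSeq on GRCm38.p6, on the gene's own strand. Capitals mark a match, on either strand, to CCGGAA (the core of ETS factor sites such as that of GABPA), CCAAT (the NF-Y box), the YY1 motif, or the NRF1 palindrome in a strict form and in a form with a free base at its centre, whose matches include those of the strict form.
Mrpl49, chr19:6057706-6058005, minus strand: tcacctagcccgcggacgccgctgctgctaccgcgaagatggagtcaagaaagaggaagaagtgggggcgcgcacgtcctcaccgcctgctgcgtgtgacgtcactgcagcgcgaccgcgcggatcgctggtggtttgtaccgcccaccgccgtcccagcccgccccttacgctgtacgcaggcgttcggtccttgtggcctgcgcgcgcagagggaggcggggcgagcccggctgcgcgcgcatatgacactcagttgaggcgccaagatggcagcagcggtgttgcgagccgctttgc
Mrpl46, chr7:78783040-78783339, minus strand: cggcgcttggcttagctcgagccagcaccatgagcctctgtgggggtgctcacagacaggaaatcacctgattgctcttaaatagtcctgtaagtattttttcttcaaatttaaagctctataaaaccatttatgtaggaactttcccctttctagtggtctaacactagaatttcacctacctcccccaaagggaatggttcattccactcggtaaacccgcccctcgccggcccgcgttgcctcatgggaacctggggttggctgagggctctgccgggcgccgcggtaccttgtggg
Mrps11, chr7:78782881-78783180, plus strand: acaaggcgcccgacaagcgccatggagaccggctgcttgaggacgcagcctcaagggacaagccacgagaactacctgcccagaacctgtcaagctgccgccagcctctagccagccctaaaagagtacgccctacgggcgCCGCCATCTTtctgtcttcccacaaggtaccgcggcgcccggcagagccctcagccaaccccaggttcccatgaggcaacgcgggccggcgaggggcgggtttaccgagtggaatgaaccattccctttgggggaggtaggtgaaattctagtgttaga
Mrpl18, chr17:12916042-12916341, minus strand: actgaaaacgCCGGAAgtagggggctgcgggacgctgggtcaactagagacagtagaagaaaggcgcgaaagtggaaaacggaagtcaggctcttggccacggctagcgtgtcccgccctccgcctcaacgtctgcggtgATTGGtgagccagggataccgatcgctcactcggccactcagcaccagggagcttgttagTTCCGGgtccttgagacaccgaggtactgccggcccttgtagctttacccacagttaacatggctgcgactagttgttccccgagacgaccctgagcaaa

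The windows of Mrpl49 and Mrpl46 hold no exact match to these motifs. Near its end the Mrpl49 window reads aagatggcag, close to the YY1 string, and near matches were not searched for. Mrps11 holds the YY1 motif once, on its minus strand, and Mrpl18 holds CCGGAA on both strands and CCAAT once. Of 75 promoter windows found for 69 members, 57.3% hold CCGGAA, against 25.2% of 13790 windows of tested genes. The YY1 motif stands in 6.67% against 1.79%, the looser NRF1 form in 17.3% against 9.0%, the strict form in 4.0% against 1.86% and CCAAT in 40.0% against 37.3%. Median GC content was 58.7% in member windows and 60.3% in the others. These shares describe letters in a window and were not tested.

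For the 3 members whose promoters are shown for their p, the head to head partner had a difference of the other sign in combination against swimming. Fau was at -0.35 ± 0.13 (edgeR adjusted p = 0.11) while Mrpl49 rose by 0.46, although their windows share 291 bases. Mrps11 was at -0.14 ± 0.23 (edgeR adjusted p = 0.73) where Mrpl46 was at 0.36 (adjusted p = 0.075). Tcp1, a chaperonin subunit whose window shares 263 bases with that of Mrpl18, was at -0.22 (edgeR adjusted p = 0.19) where Mrpl18 was at 0.48 (adjusted p = 0.079).

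Genes that work with the mitochondrial ribosome were read from fixed lists. The 5 mitochondrial ribosomal proteins with other names (Dap3, Chchd1, Aurkaip1, Ptcd3, Gadd45gip1) had 0 called by edgeR or DESeq2 in the combination against control, with 1 positive and 0 at an unadjusted p under 0.05. Dap3, a small subunit GTPase, measured 59.5 ± 5.45 CPM in control and 59.0 ± 1.90 CPM in the combination. Of 28 assembly factors 0 rose and 1 fell, Mtg2, a GTPase that matures the large subunit, from 19.2 ± 0.688 to 13.8 ± 0.987 CPM (-0.48 ± 0.11, edgeR adjusted p = 0.036). The list median was -0.15 with 7 of 28 positive. Of 14 tested translation factors 0 were called by edgeR or DESeq2, with 3 at an unadjusted p under 0.05 and a median of -0.14. Of all genes, edgeR called 4.86% in this comparison, and 0.145%, 0.0724% and 0.0289% without combination 1, 2 and 3. How the calls on these and the following lists fared in those fits was not examined.

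Among 20 mitochondrial aminoacyl-tRNA synthetases and amidotransferase subunits, 1 rose and 1 fell in the combination against control, beside 4.86% of all genes called. Qrsl1, a subunit of the enzyme that makes glutaminyl-tRNA, rose from 6.52 ± 1.49 to 11.2 ± 0.538 CPM (0.78 ± 0.19, edgeR adjusted p = 0.041). Qrsl1 was already at 11.01 ± 0.781 CPM under curcumin alone, and at 7.45 ± 1.57 CPM under swimming alone. In curcumin against control DESeq2 called Qrsl1, while edgeR called 0 of these 20 genes. Lars2, the leucyl-tRNA synthetase, fell from 35.7 ± 3.05 to 25.8 ± 1.66 CPM (-0.47 ± 0.12, edgeR adjusted p = 0.044). In combination against swimming, Mars2, the methionyl-tRNA synthetase, rose by 0.69 (adjusted p = 0.036) and Mrrf, which recycles ribosomes after termination, fell by 0.58 (adjusted p = 0.044). That comparison called 6.66% of all genes.

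Of 8 tested regulators of mitochondrial genes, 2 were called in combination against swimming and the other 6 were not, beside 6.66% of all genes called. Pprc1, a coactivator of the PGC-1 family, rose from 119 ± 19.7 to 191 ± 14.6 CPM (0.68 ± 0.11, edgeR adjusted p = 0.011). Yy1, a zinc finger factor, rose from 131 ± 4.22 to 162 ± 5.31 CPM (0.31 ± 0.08, edgeR adjusted p = 0.041). Against control edgeR called 0 of 8 (3 at an unadjusted p under 0.05) and DESeq2 called Pprc1, with Gabpa at 0.33 (adjusted p = 0.11), Nrf1 at -0.17 (adjusted p = 0.34) and Myc at 0.13 (adjusted p = 0.63).

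The messages that this ribosome translates were read beside its proteins. All 10 tested mitochondrially encoded mRNAs were positive in the combination against control, with a median log2 difference of 0.53 beside 0.02 for the members. edgeR called mt-Nd2, mt-Co1, mt-Nd5 and mt-Nd6, beside 4.86% of all genes, and DESeq2 called 7, beside 12%. The cytosolic ribosomal protein genes went the other way, with 6 of 79 positive, a median of -0.37 and 8 called lower. Under curcumin alone their median was already -0.27 (3 of 79 positive, 0 called), and under swimming alone -0.09 (14 positive, 0 called). The mitochondrial mRNAs had medians of -0.01 under curcumin alone (4 of 10 positive) and 0.28 under swimming alone (10 of 10), with 0 called by edgeR. Differences between these lists were not tested, and all use the same control libraries.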

How the data were processed

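The authors deposited 1 table with a read count and an FPKM value per gene for each library. Counts were made with HTSeq 0.9.1 after alignment with HISAT2 2.0.5 to mm9, per the labels' protocols, while the submitters' processing notes name GRCm39. The deposited coordinates are printed as they stand. FPKM is, per the labels, the authors' scaling, and count, length and library total gave the deposited FPKM back for 184877 of 184877 values above 0 (relative tolerance 0.001). The length equals the exon bases of GENCODE M21 for 78 of 78 members. The strand setting is not given in the sources used here.

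Groups came from sample titles. The low count filter was edgeR's filterByExpr (at least 10 counts, total of 15). All 12 libraries entered one robust quasi-likelihood fit in edgeR 4.0.16 (R 4.3.3) after TMM scaling, with 8 residual degrees of freedom. CPM values are scaled by TMM, and log2 list levels use a prior count of 2 and are means over members centred on each gene's mean. The floor for a count of 0 covers counting error only, while the 95% intervals of log2 differences come from the edgeR fit and include the spread between libraries. The alternatives tried were another tool (DESeq2 1.42.0), size factors by RLE, leaving the filter out or asking for a mean count of 50, only the groups compared, a replicate block, combination libraries summed and leaving out each library. A non-robust fit was added after seeing the data. The script was tested on simulated data.

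Members and lists were chosen with earlier results of these data known. Named members are those called, the 5 of smallest p in each comparison with control where fewer than 3 were called, the 5 highest and lowest by FPKM and those failing the filter. Others named were chosen after their values were seen. Libraries of 1 group differed by more than sampling noise, with chi-square over degrees of freedom from 3.58 (combination 1 and 3) to 67.1 (control 1 and 2).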

Additional observations from a re-analysis of the deposited data

How the results depend on the processing

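Counts of called members changed mostly in combination against swimming, the comparison that held the only call. With DESeq2 the count was 1 for combination against control, 5 for combination against swimming and 1 for the interaction, where edgeR gave 0, 1 and 0, while calls over all genes were 1620, 1841 and 211 against 663, 908 and 34. Fitting only the groups compared gave 1 for combination against curcumin and 6 for combination against swimming, beside 2121 and 2707 of all genes. Summing the combination libraries gave 0 for combination against swimming and 0 over all genes, with the lone sample assumed to vary like the other groups. Leaving out each library gave 0 to 1 called members for combination against control, 0 to 6 for combination against swimming, and 0 for the other comparisons. Over all genes these fits called 0.0289% to 15.8% and 0.225% to 19.5% in the first 2 of these. The replicate block gave 0 for combination against swimming, with Mrpl49 at an edgeR adjusted p of 0.057 and 496 genes called in all, and changed no other call of a member. Same-numbered libraries correlated between -0.25 and 0.16 in their deviations, with 2 of 18 pairs above 0.1, against 2 of 36 pairs of different numbers. These correlations show no pairing by number, but with 3 libraries per group they cannot exclude one. RLE scaling, both other filters and the non-robust fit, chosen after seeing the data, left every count of called members as it was.

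Member medians moved by less than 0.059, the spread between replicates on the log2 scale, in 127 of 129 alternatives. Without swimming 3, they moved from 0.034 to -0.036 for combination against swimming and from -0.043 to 0.019 for swimming against curcumin. Leaving out each library, these medians ran from -0.036 to 0.065 and from -0.092 to 0.019. Mrpl49 in combination against swimming kept its sign in the settings run. So did the members of smallest p named for each comparison with control, in that comparison. The signs of the other named genes were not followed across the settings. Depth limits low members most: Mrps18c had 15 to 37 counts, and its interval for combination against control ran from -0.84 to 0.52.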
